A study of Mus musculus with 13 samples.

Results

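The angiopoietins and their angiopoietin-like relatives were followed through spontaneous immortalization of mouse embryonic fibroblasts (MEFs), the mixed connective tissue cells that grow out of a dissociated embryo. The group holds 8 of the 55487 genes counted, Angpt1, Angpt2, Angpt4, Angptl1, Angptl2, Angptl4, Angptl6 and Angptl7, which were chosen by symbol because of the near-complete loss of Angptl7 reads in the immortalized lines, so their immortalized against primary values are given as a description with no test.

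Angiopoietins are secreted ligands of the receptor tyrosine kinase Tie2 (gene Tek) of endothelial cells. Angpt1, made by cells around vessels, activates the receptor and keeps vessels quiet, whereas Angpt2 can block or activate it depending on context, and Angpt4 is the mouse counterpart of a further human ligand. The angiopoietin-like proteins share a coiled-coil stretch and, in most members, a fibrinogen-like domain, but they do not bind Tie2. Angptl4 inhibits lipoprotein lipase, Angptl2 is a secreted protein of stromal and fat tissue linked to inflammation, and Angptl7 is a matrix-associated protein best known from the cornea and the trabecular meshwork of the eye.

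The 13 poly-A RNA-seq libraries came from wild-type (WT) primary MEFs of clones 3, 4 and 5 (n = 3), WT immortalized lines of the same clones (n = 3), Prkd3-/- primary MEFs of clones 13, 14 and 15 (n = 3) and Prkd3-/- immortalized lines 13, 13a, 14 and 15 (n = 4). Prkd3 encodes protein kinase D3, and how the allele was made, the strain and the embryonic age are not given in the sources used here. By the study's methods, which describe WT cells, MEFs were grown in 10% fetal calf serum, raised to 20% once a culture had become senescent. By the same methods, lines were established from growing colonies that arose in such a culture, and the number of founder cells is not given. After immortalization the lines were expanded and grown in 10% serum again. The labels name no other treatment, and the study's methods give a different embryo as the source of each WT clone. Levels are read counts scaled to library size (CPM) after 1 scaling over all 13 libraries, and levels of different genes were compared per length, as CPM divided by the exon length in kilobases (RPKM).

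Libraries held 35273408 to 100441756 counts, so that 3 counts, taken here as the floor, corresponded to 0.0277 to 0.0842 CPM. Prkd3 reads were at 69.2 to 93.7 CPM in the 6 WT libraries and at 33.6 to 61.0 CPM in the 7 Prkd3-/- libraries, lower but still counted. The summed fibroblast markers (9 genes) reached 30700 to 93900 CPM in every library. The summed macrophage markers (8 genes) lay between 530 and 537 CPM in WT primary MEFs and between 26.4 and 84.9 CPM in the WT lines, and were 81.5, 698 and 176 CPM in Prkd3-/- primary MEFs 13, 14 and 15. WT and Prkd3-/- libraries were deposited in separate tables, Xist was at 43.8 to 170 CPM in the WT and at most 0.156 CPM in the Prkd3-/- libraries, and the WT primary libraries also held the Y-linked transcript Ddx3y (51.6 to 63.7 CPM). In the WT lines Ddx3y ran from 0.209 to 65.1 CPM, so Y-linked reads also differed between WT states. What part this had in the comparison of states was not tested. Xist and Y-linked reads together in each WT primary library go against a single embryo as the source of each. The WT primary libraries were also closer to each other than those of any other group, with a median SD of log2 CPM of 0.064 over 15805 genes with a mean of at least 1 CPM, beside 0.217 in Prkd3-/- primary MEFs, 0.284 in WT lines and 0.477 in Prkd3-/- lines. Whether the 3 WT primary libraries stand for 3 separate embryos was not tested, so each WT SD, SE and p measures the spread between these libraries, which may be less than that between embryos. Genotype, table and these differences between the embryos cannot be told apart. In bulk RNA, fewer cells of a type and less RNA per cell cannot be told apart either.

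The members lie on 7 mouse chromosomes (GRCm38), with Angptl7 (ENSMUSG00000028989) at chr4:148495183-148500460 on the minus strand, wholly inside the span of Mtor, which is read from the other strand. Angpt2 (ENSMUSG00000031465, chr8:18690263-18741562, minus strand) lies in the same way inside Mcph1, Angptl1 (ENSMUSG00000033544, chr1:156838562-156861078, plus strand) inside Ralgps2 and Angptl2 (ENSMUSG00000004105, chr2:33216069-33247717, plus strand) inside Ralgps1, with 0 shared exon bases in each case. Angpt1 (ENSMUSG00000022309) is at chr15:42424723-42676977 and Angptl4 (ENSMUSG00000002289) at chr17:33773750-33781830, both on the minus strand. Angpt4 (ENSMUSG00000027460) is at chr2:151911210-151945337 on the plus strand and Angptl6 (ENSMUSG00000038742) at chr9:20873808-20879727 on the minus strand. Such nesting inside a gene of the other strand held for 4 of the 8 members and for 2.42% of 21897 protein-coding genes. Counting was done without strand, and 14.2% of the exon bases of Angpt1 are shared with the antisense RNA Gm17473, 16.4% of those of Angptl1 with Gm37802 and 16.8% of those of Angptl6 with A230050P20Rik, so reads in these stretches were counted for both genes.

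Promoter sequences, from 250 bases before to 50 after the start of transcription, were held by RefSeq (GRCm38.p6) for 5 of the 8 members. The promoter of Angptl7, which was at most at 0.915% of its primary level in every line, is shown with those of Angptl2, which kept at least 49.2% in every line, and of Angpt4, the only member that lay higher in all WT lines. Capitals mark matches to the 7 motifs searched on either strand, which were the TATA box TATAAA, the GC box core GGGCGG, the CCAAT box, the AP-1 site TGANTCA, the forkhead site GTAAACA, the hypoxia response core ACGTG and the xenobiotic response core GCGTG. The last is also a form of the hypoxia response core.
Angptl7, chr4:148500413-148500712, minus strand: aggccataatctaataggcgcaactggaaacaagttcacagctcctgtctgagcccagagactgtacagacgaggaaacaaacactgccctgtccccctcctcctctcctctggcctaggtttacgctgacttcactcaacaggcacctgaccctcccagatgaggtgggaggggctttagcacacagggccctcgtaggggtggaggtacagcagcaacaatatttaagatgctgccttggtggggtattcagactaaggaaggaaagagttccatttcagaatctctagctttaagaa
Angptl2, chr2:33215711-33216010, plus strand: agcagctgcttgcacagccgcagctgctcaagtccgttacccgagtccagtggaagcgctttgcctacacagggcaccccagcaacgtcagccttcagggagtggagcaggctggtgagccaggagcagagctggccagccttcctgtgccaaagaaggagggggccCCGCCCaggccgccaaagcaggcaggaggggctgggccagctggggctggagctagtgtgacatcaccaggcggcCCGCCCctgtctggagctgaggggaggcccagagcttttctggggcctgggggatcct
Angpt4, chr2:151910957-151911256, plus strand: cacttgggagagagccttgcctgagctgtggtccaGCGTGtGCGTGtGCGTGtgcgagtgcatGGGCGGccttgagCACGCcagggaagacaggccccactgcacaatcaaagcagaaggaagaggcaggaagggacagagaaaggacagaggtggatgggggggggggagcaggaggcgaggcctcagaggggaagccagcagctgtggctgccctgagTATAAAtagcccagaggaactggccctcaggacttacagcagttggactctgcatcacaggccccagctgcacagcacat
The Angptl7 window held no exact match to any of the 7 motifs, and looser forms, such as other TATA boxes, were not searched. The Angptl2 window held GGGCGG in reverse at positions -83 and -8 from the start. The Angpt4 window held TATAAA at -30, GGGCGG at -187 and 4 copies of GCGTG, at -215, -209, -203 and, in reverse, -174. Among 32544 mouse promoters of this length, TATAAA was present in 13.6%, GGGCGG in 35.9%, CCAAT in 37.4%, TGANTCA in 7.79%, GTAAACA in 3.66%, ACGTG in 19.7% and GCGTG in 32.6%. CpG dinucleotides numbered 4 in the Angptl7, 9 in the Angptl2 and 7 in the Angpt4 window, against a median of 7 over all promoters, and those of Angptl1 and Angptl6 held 6 and 5 and none of the motifs.

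In primary WT MEFs the members spanned a wide range of levels, and all but 1 pair of neighbours in the order were separate in the 3 clones. Per length, Angptl7 came first at 52.5 ± 5.33 RPKM (SD, n = 3), followed by Angptl2 at 34.6 ± 0.113, Angpt1 at 9.97 ± 1.07, Angptl4 at 5.68 ± 0.163 and Angpt2 at 2.35 ± 0.192 RPKM. Angptl6 (1.24 ± 0.280 RPKM) and Angptl1 (1.15 ± 0.106 RPKM) overlapped, the only neighbours that did, and Angpt4 was last at 0.717 ± 0.173 RPKM. In the WT lines Angptl2 was first at 32.0 ± 9.82 RPKM and Angptl7 last at 0.0491 ± 0.0228 RPKM, both clear of their neighbours. Between them, Angpt4, Angptl4, Angpt1, Angptl6, Angptl1 and Angpt2 followed from 3.47 to 0.364 RPKM with overlapping neighbours. Angptl2 was also first in Prkd3-/- primary MEFs (33.4 ± 16.6 RPKM) and in the Prkd3-/- lines (25.7 ± 13.1 RPKM), and in these groups almost all neighbours in the order overlapped, the exception being Angptl6 above Angptl1 in the primary cells.

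The summed RPKM of the 8 genes was therefore carried by different members in primary and immortalized cells. Angptl7 made up 46.1, 47.0 and 52.1% of the sum in WT primary clones 3, 4 and 5 and 0.147, 0.0477 and 0.174% in their lines. Its share was 25.3, 9.51 and 30.7% in Prkd3-/- primary clones 13, 14 and 15, and in lines 13, 13a, 14 and 15 it was 0.0718, 0.583, 0.0416 and 0.122%. Angptl2 held the largest share in 6 of the 7 lines, from 64.3 to 90.9%, whereas in Prkd3-/- line 14 Angpt1 held 65.1% and Angptl2 28.5%.

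**Figure D1:**
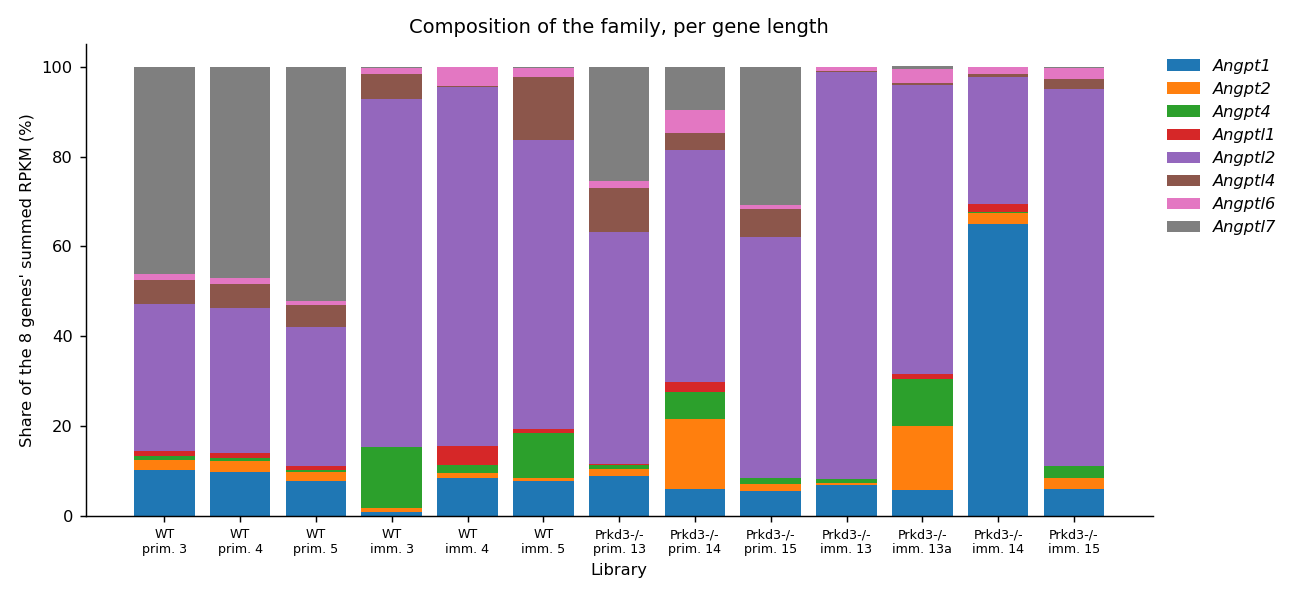
Share of each member in the summed RPKM of the 8 genes (vertical axis, percent) in each of the 13 libraries (horizontal axis, prim. for primary and imm. for immortalized). Angptl7 accounts for 46.1 to 52.1% in WT primary MEFs and for at most 0.583% in any line, and Angpt1 dominates only Prkd3-/- line 14.

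Angptl7 was the member with the largest difference between states. In WT primary clones 3, 4 and 5 it was at 105, 108 and 126 CPM (6843, 9966 and 7070 counts), and in lines 3, 4 and 5 at 0.145, 0.0508 and 0.122 CPM (9, 3 and 8 counts). The 3 lines were close to the floor of detection and far below every primary library. The fitted log2 fold change was -10.03 (SE 0.33), with values from -10.30 to -9.71 when each library was left out in turn. Since the members were chosen with this contrast known, these values describe the choice and carry no test.

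The Prkd3-/- cells showed the same direction from a lower and less even start. Prkd3-/- primary clones 13, 14 and 15 had 46.4, 5.68 and 51.6 CPM of Angptl7 (4028, 614 and 1840 counts), and lines 13, 13a, 14 and 15 had 0.0763, 0.425, 0.0469 and 0.0674 CPM (4, 31, 3 and 5 counts). Clone 14 stood apart from the other primary cultures, and even so it lay above every line. The log2 fold change was -7.78 (SE 1.14; -9.08 to -7.37 with each library left out). Set against the primary library of its own clone, each line kept little of its Angptl7 level. WT lines 3, 4 and 5 were at 0.138, 0.0468 and 0.0965% of their primary cells (95% counting intervals 0.0632 to 0.263, 0.00965 to 0.137 and 0.0417 to 0.190%). Prkd3-/- lines 13, 13a, 14 and 15 were at 0.164, 0.915, 0.826 and 0.131% (0.0448 to 0.421, 0.621 to 1.30, 0.170 to 2.43 and 0.0424 to 0.305%). These exact intervals cover counting error only, and those of lines 13 and 13a, which share a primary library, did not overlap.

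The genes around Angptl7 showed no difference of this size. Mtor, the growth-controlling kinase in whose span it lies, had a log2 fold change of -0.18 (SE 0.22, adjusted p = 0.713 by edgeR) in WT and -0.67 (SE 0.23, adjusted p = 0.669 by edgeR) in Prkd3-/- cells. Of the genes lying at least partly within 500 kb, Mtor among them, 20 were tested in WT, with log2 fold changes from -0.95 (Casz1) to 0.09 and a median of -0.23. In Prkd3-/- cells 21 were tested, from -2.89 (Nppa) to 0.67 with a median of -0.23. The 500 kb window was chosen after the values were seen.

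**Figure D2:**
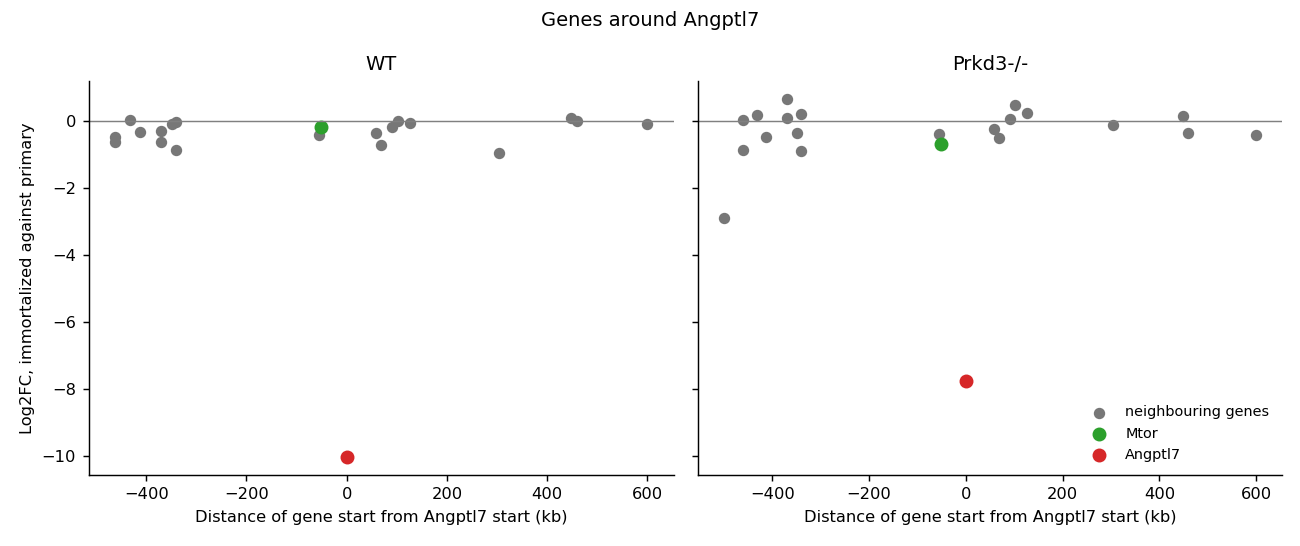
Log2 fold change, immortalized against primary (vertical axis), of the genes tested around Angptl7 in WT (left) and Prkd3-/- (right) MEFs by the distance of their start from that of Angptl7 (horizontal axis, kb). Angptl7 (red) lies at -10.03 and -7.78, while Mtor (green) lies at -0.18 and -0.67 and the lowest neighbour (grey) at -0.95 and -2.89.

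The genes whose log2 CPM most resembled that of Angptl7 over the 13 libraries, among 15804 genes with a mean of at least 1 CPM, were C2cd4a (Pearson r = 0.98), Tfap2b (0.98), Vat1l (0.98), Pla2g7 (0.96) and Myh1 (0.96). Angptl7 lay higher in every primary library than in any line, so these coefficients describe mostly that split and get no p. Tfap2b, an AP-2 transcription factor of neural crest and limb mesenchyme, was at 4.30 to 11 CPM in WT primary, 0.203 to 6.30 CPM in Prkd3-/- primary and 0 counts in all 7 lines. Pla2g7, the secreted platelet-activating factor acetylhydrolase, was at 23.8 to 25.3 CPM in WT primary cells and 1.81 to 2.32 CPM in the WT lines. Myh1, a skeletal muscle myosin heavy chain, was at 1.57 to 4.06 CPM in WT primary libraries and at most 0.0161 CPM in the WT lines. Of the other members, Angptl4 (r = 0.73) and Angpt2 (0.61) came nearest, Angptl6, Angpt1, Angptl1 and Angptl2 lay between 0.35 and 0.39, and Angpt4 was at -0.07.

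Angptl4, the lipoprotein lipase inhibitor that responds to fasting, hypoxia and PPAR ligands, was the other member lower in all 7 lines than in their own primary cells. It was at 19.8, 20.8 and 19.8 CPM in WT primary clones and at 8.99, 0.322 and 16.1 CPM in WT lines 3, 4 and 5. The WT groups did not overlap, but line 5 kept 81.3% of the level of its own primary cells while line 4 kept 1.55%. Among Prkd3-/- cells it was at 29.7, 3.76 and 16.8 CPM in primary clones 13, 14 and 15 and in lines 13, 13a, 14 and 15 at 0.0954, 0.466, 1.12 and 1.88 CPM. Here too every line lay below every primary library. The log2 fold change was -1.25 (SE 1.09; -2.11 to -0.68 with each library left out) in WT and -4.23 (SE 1.03; -4.88 to -3.53) in Prkd3-/- cells, and whether the genotypes differed in this was not tested.

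Angpt1, the Tie2 activator, was lower in 6 of the 7 lines than in their own primary cells. It was at 56.2, 53.9 and 45.6 CPM in WT primary clones and at 2.14, 21.62 and 13.02 CPM in WT lines 3, 4 and 5, without overlap. In WT the log2 fold change was -2.08 (SE 0.76; -2.77 to -1.58). Prkd3-/- primary clones 13, 14 and 15 had 38.9, 8.63 and 22.5 CPM and lines 13, 13a, 14 and 15 had 17.4, 10.1, 177 and 7.97 CPM. A single line, 14, held the highest Angpt1 level of all 13 libraries, at 2050% of its primary cells, while the remaining lines lay within or below the range of the primary cells. With line 14 the Prkd3-/- log2 fold change was 1.19 (SE 1.19) and without it -0.998.

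Angpt2, the context-dependent Tie2 ligand, was lower in every WT line than in any WT primary library. It was at 8.60, 9.42 and 8.01 CPM in WT primary clones and at 1.39, 1.88 and 0.762 CPM in their lines, with a log2 fold change of -2.69 (SE 0.35; -3.01 to -2.41). In Prkd3-/- primary clones 13, 14 and 15 it was at 4.98, 15.9 and 3.96 CPM and in lines 13, 13a, 14 and 15 at 0.782, 17.6, 4.49 and 2.24 CPM. The groups overlapped in Prkd3-/- cells, and clone 14 and line 13a were the high libraries of their groups. There the log2 fold change was -0.40 (SE 1.01), which became 0.49 without primary clone 14 and -1.74 without line 13a.

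The balance of Angpt1 and Angpt2 was even among WT primary clones and uneven among lines. Per length, Angpt1 exceeded Angpt2 by 4.63, 4.06 and 4.04 times in WT primary clones and by 1.10, 8.16 and 12.1 times in WT lines 3, 4 and 5. In Prkd3-/- primary clones 13, 14 and 15 the ratio was 5.54, 0.383 and 4.04, and in lines 13, 13a, 14 and 15 it was 15.8, 0.406, 27.9 and 2.52. Angpt2 was the more abundant ligand only in primary clone 14 and line 13a, which come from different clones.

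Angpt4, the remaining Tie2 ligand, was the member that lay the other way in WT cells. It was at 2.02, 1.76 and 1.23 CPM in WT primary clones and at 14.5, 2.15 and 7.67 CPM in WT lines 3, 4 and 5. Line 4 lay just above the highest primary library (2.02 CPM), and lines 3 and 5 lay clearly above it. The log2 fold change was 2.27 (SE 0.68; 1.56 to 2.73). Prkd3-/- primary clones 13, 14 and 15 had 1.85, 3.80 and 2.64 CPM and lines 13, 13a, 14 and 15 had 0.954, 8.18, 0.313 and 1.58 CPM. Line 13a was high and the other Prkd3-/- lines were low, and the log2 fold change of -0.01 (SE 0.995) became -1.58 without line 13a.

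Angptl1 was the least even member across lines. It was at 3.34, 3.54 and 2.95 CPM in WT primary clones and at 0.0483, 6.04 and 0.839 CPM in WT lines 3, 4 and 5, a 125-fold spread between lines 3 and 4. The log2 fold change of -0.51 (SE 1.29) became -2.87 without line 4. Prkd3-/- primary clones 13, 14 and 15 were at 0.449, 1.85 and 0.168 CPM and lines 13, 13a, 14 and 15 at 0.0191, 1.14, 2.50 and 0.0270 CPM. Lines 13 and 15 had 1 and 2 counts, the groups overlapped, and the log2 fold change was 0.15 (SE 1.52), 1.55 without primary clone 14 and -1.07 without line 14.

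Angptl2 and Angptl6 stayed within a 4-fold range of the primary cells in all 7 lines. Angptl2 was at 217, 217 and 218 CPM in WT primary clones and at 224, 248 and 131 CPM in WT lines 3, 4 and 5, with a log2 fold change of -0.12 (SE 0.24). In Prkd3-/- primary clones 13, 14 and 15 it was at 277, 89.9 and 263 CPM and in lines 13, 13a, 14 and 15 at 282, 137, 93.6 and 135 CPM, a log2 fold change of -0.39 (SE 0.48). Both ranges overlapped. Against their own primary cells, WT line 5 was at 60.0% and Prkd3-/- lines 13a and 15 at 49.2 and 51.4%, and the other 4 lines lay slightly above their primary level, at up to 114%. Angptl6, a secreted relative with effects on energy use, was at 2.36, 2.04 and 1.48 CPM in WT primary clones and at 1.01, 3.33 and 1.10 CPM in their lines. In Prkd3-/- primary clones 13, 14 and 15 it was at 2.10, 2.22 and 1.21 CPM and in lines 13, 13a, 14 and 15 at 0.687, 1.71, 1.25 and 1.07 CPM. Its groups overlapped in both genotypes, with log2 fold changes of -0.11 (SE 0.52; -0.89 without WT line 4) and -0.65 (SE 0.43). A230050P20Rik, which shares exon bases with it, fell in WT lines (log2 fold change -2.30, SE 0.22, adjusted p = 0.00497 by edgeR), a call lost with the clone number as a replicate block (edgeR adjusted p = 0.0614).

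**Figure D3:**
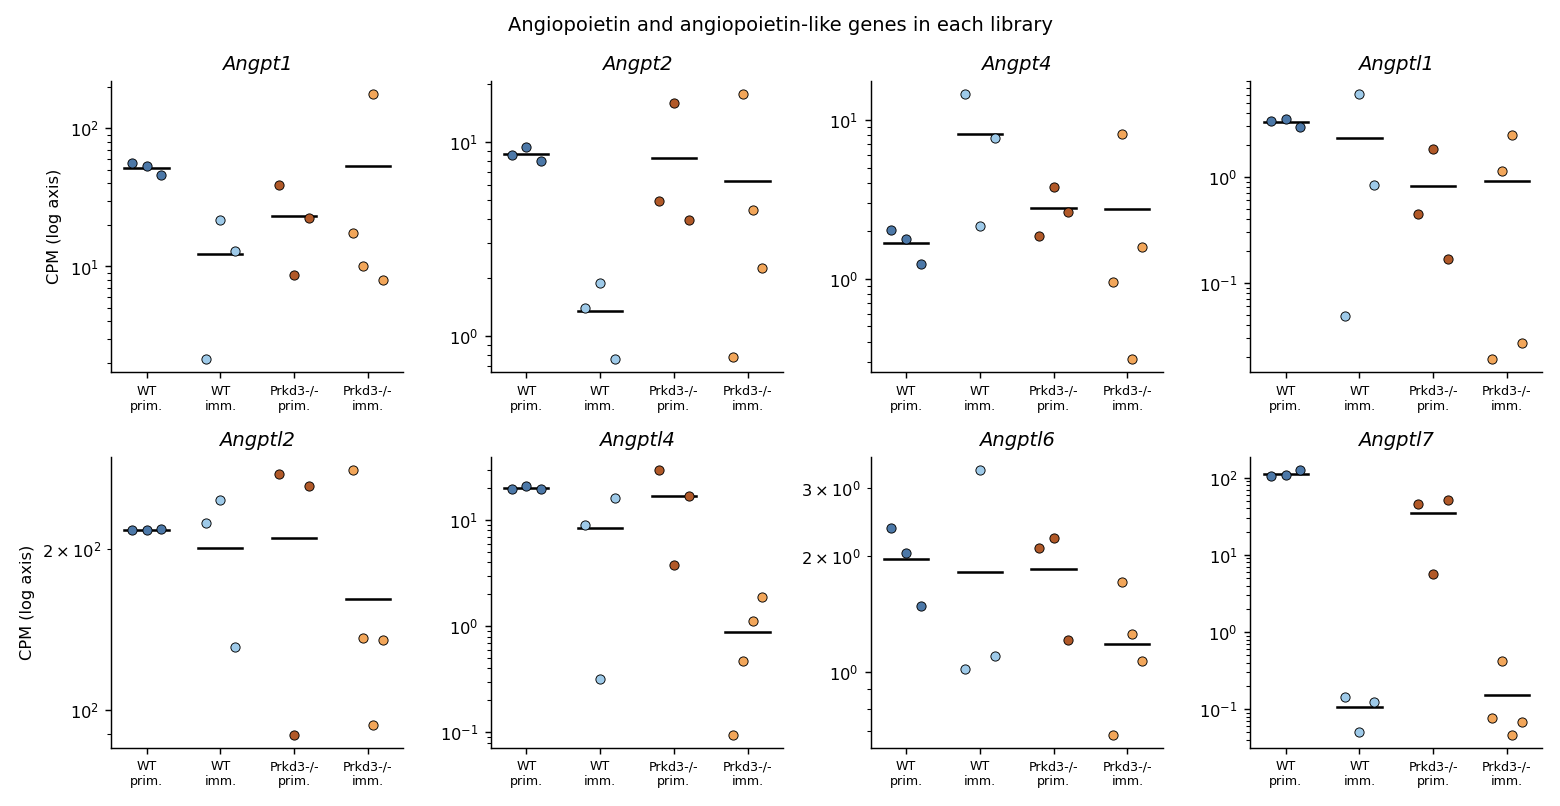
Level of each member in CPM (vertical log axes) in the 13 libraries, grouped as WT and Prkd3-/-, primary (prim.) and immortalized (imm.); points are libraries and bars are group means, and the bar of a group with 1 high library lies above most of its points. Angptl7 is the member with the widest gap between states in both genotypes, and Angptl2 the one with the narrowest range.

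As a description of the whole group in WT cells, 1 of the 8 members (Angptl7) met the thresholds used for all genes, an adjusted p under 0.01 and a log2 fold change of at least 1 in either direction, which 1.82% of the 19836 genes tested in edgeR met, 1.76% as lower and 0.0605% as higher. With the clone number as a replicate block 0 genes met them in edgeR (2784 with an unadjusted p under 0.05), and without WT primary clone 3, 4 or 5 the 361 genes became 48, 50 and 66, against 743 without WT line 5. WT libraries of the 2 states did not overlap in 4 members that were lower in the lines (17.4% of all genes) and 1 that was higher (13.9%). By DESeq2, 3 members (Angpt2, Angpt4 and Angptl7) met the thresholds, among 1368 genes. The median log2 fold change of the members was -0.88, beside 0.04 over all genes tested. In Prkd3-/- cells 0 members and 0% of 20298 genes passed in edgeR, where 1331 genes had an unadjusted p under 0.05 and DESeq2 called 190, with 2 members (Angptl4 and Angptl7) among them. Angptl4 and Angptl7 did not overlap between states (5.26% of all genes as lower), and the median of the members was -0.40 beside 0.07 over all genes. The tests kept all 8 members in both comparisons, Angptl7 by way of its primary libraries, and the rule that chose the group used this contrast, so nothing is read from these shares.

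**Figure D4:**
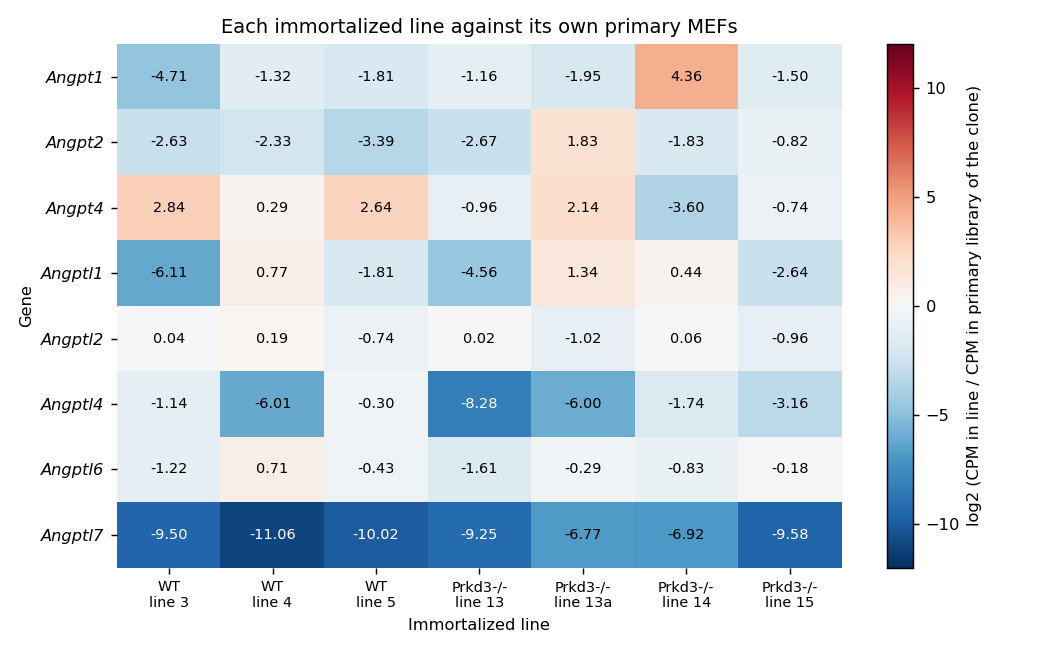
Log2 ratio of the CPM in each immortalized line (columns) to that in the primary library of its own clone, with line 13a set against clone 13, for each member (rows); blue is lower and red higher in the line. Angptl7 and Angptl4 are lower in 7 of 7 lines, from -11.06 to -6.77 and from -8.28 to -0.30, and Angpt1 in line 14 is the highest ratio at 4.36.

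The genotype comparison did not itself enter the choice of members and was tested. Its libraries were also part of the contrast behind that choice, in which Angptl7 was high in the primary cells. The genotype values and p of Angptl7, with or without single libraries, are therefore not independent of the choice. In primary cells 0 of the 8 members passed in edgeR or DESeq2 and 1 (Angptl1) had an unadjusted p under 0.05 in edgeR, beside 0.765% of 20403 genes that passed. Angptl7, at 113 ± 11.5 CPM (SD, n = 3) in WT and 34.6 ± 25.2 CPM (SD, n = 3) in Prkd3-/- primary MEFs, had a log2 fold change of -1.70 (95% interval -3.47 to 0.07, edgeR adjusted p = 0.223), with every Prkd3-/- library below every WT library. Angptl1 also had no overlap, with 3.28 ± 0.300 and 0.822 ± 0.900 CPM (SD, n = 3 each) and a log2 fold change of -1.91 (-3.72 to -0.09, edgeR adjusted p = 0.189), and so did Angpt1 with -1.14 (-2.34 to 0.06, edgeR adjusted p = 0.227). Libraries did not overlap in 18.8% of all genes as lower. Angpt2, Angptl2, Angptl4 and Angptl6 had log2 fold changes between -0.25 and -0.04, and Angpt4 had 0.75 (-0.04 to 1.53, edgeR adjusted p = 0.226). These intervals leave room for changes of over 2-fold in most members.

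Prkd3-/- primary clone 14, the culture with 698 CPM of macrophage markers, decided several of these values. Without it Angptl7 (log2 fold change -1.20, edgeR adjusted p = 0.000226) and Angptl1 (-3.22, edgeR adjusted p = 0.000352) passed the thresholds, and Angptl2 and Angptl4 turned to 0.32 and 0.23. The number of all genes that passed rose from 156 to 1456 in that fit, and it was 2, 2 and 27 without WT primary clone 3, 4 or 5 and 75 without Prkd3-/- primary clone 15. What part the cell mixture of clone 14 had in these values was not tested.

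Among the immortalized lines Angptl7 was too low to be tested, and 0 of the other 7 members passed in edgeR or DESeq2 and 1 (Angptl4) had an unadjusted p under 0.05 in edgeR, beside 0.0406% of 19683 genes that passed. The 8 genes behind that share became 0 without any single one of WT lines 4 and 5 and Prkd3-/- lines 13a, 14 and 15, and 2 without WT line 3. The largest difference was that of Angptl4, at 8.46 ± 7.88 CPM (SD, n = 3) in WT and 0.890 ± 0.783 CPM (SD, n = 4) in Prkd3-/- lines, a log2 fold change of -3.24 (-6.23 to -0.25, edgeR adjusted p = 0.714). Angpt1 and Angpt2 had 2.12 (-1.02 to 5.26, edgeR adjusted p = 0.766) and 2.24 (-0.21 to 4.68, edgeR adjusted p = 0.739), the first resting on line 14, without which it was -0.05. The spread between lines was wide in at least 1 genotype in all but Angptl2 (-0.31, -1.27 to 0.65, edgeR adjusted p = 0.875) and Angptl6 (-0.62, -1.91 to 0.68, edgeR adjusted p = 0.818). Angpt2 spread 22.55-fold among Prkd3-/- lines but 2.46-fold among WT lines. The ranges of the 2 genotypes overlapped in all 7 members, whereas 8.7% of all genes had no overlap.

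The genes around the members in their pathways were taken from a list of 53. It held Tie2 and other receptors, Tie2 signaling, the lipoprotein lipase system, the leukocyte receptors Pirb and Lilrb4a, transcription factors and vascular growth factors. The list was drawn up with earlier results of these data known, so the counts and p values of its genes are given as a description. In WT cells 44 were tested, and 4 passed as lower and 1 as higher in edgeR, with a median log2 fold change of -0.02. Of all 19836 genes tested, 1.82% passed. Tek, the receptor of the angiopoietins, was at 5.31, 6.03 and 9.03 CPM in WT primary clones and 0.145, 0.254 and 0.336 CPM in WT lines 3, 4 and 5. It fell by 4.78 on the log2 scale (SE 0.41, edgeR adjusted p = 0.00317). Dok2, a docking protein below Tie2 that is also made by blood cells, fell by 5.33 (SE 0.40, edgeR adjusted p = 0.00245). Pirb, an immunoglobulin-like receptor of myeloid cells, fell by 4.65 (SE 0.49, edgeR adjusted p = 0.00671), and its relative Lilrb4a fell by 4.35 (SE 0.15, edgeR adjusted p = 0.000259). Vegfa, the vascular endothelial growth factor, rose by 1.22 (SE 0.12, edgeR adjusted p = 0.00472). By role, 1 of 8 receptors, 1 of 11 signaling genes, both leukocyte receptors and 1 of 9 vascular growth factor genes passed in edgeR. There 0 of 6 lipase genes and 0 of 8 transcription factors did. DESeq2 called 8 of the list, 7 as lower. Beside the 5 genes above it called Kdr (DESeq2 adjusted p = 0.000939), the lipase list gene Pcsk5 (DESeq2 adjusted p = 4.45e-06) and the transcription factor Ppara (DESeq2 adjusted p = 3.79e-06). Their edgeR log2 fold changes were -3.35, -4.28 and -2.44. With the clone as a replicate block the adjusted p of the 5 genes was 0.0185 to 0.0443 in edgeR and 0 of the list passed (10 with an unadjusted p under 0.05), and without WT primary clone 3, 4 or 5 in turn 1 passed, without line 4 the count was 2 and without line 5 it was 8.

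Markers of other cell types moved with these genes in WT cells. The summed endothelial markers (8 genes, Tek among them, with Tie1 and Cldn5 at 3 counts or fewer in every library) were at 14.2 to 19.0 CPM in WT primary cells and 0.725 to 2.94 CPM in WT lines. They were at 16.7 to 29.7 CPM in Prkd3-/- primary cells and 1.74 to 18.1 CPM in the Prkd3-/- lines. Tek and Kdr, which the pathway list also holds, made up most of this sum in WT primary cells, and the 5 endothelial markers outside that list summed to 3.65 to 3.97 CPM in WT primary cells and 0.419 to 1.28 CPM in WT lines. Of these, Emcn and Vwf were apart between WT states, while Pecam1 (0.0327 to 0.199 and 0 to 0.198 CPM) and Cdh5 (0.184 to 0.392 and 0.0644 to 0.322 CPM) overlapped. The summed macrophage markers were lower in WT lines (at most 84.9 CPM) than in WT primary cells (at least 530 CPM), as Pirb, Lilrb4a and Dok2 were. The range of this sum in the Prkd3-/- lines was 9.69 to 127 CPM, with 127 CPM in line 13a, the line with the most Angptl7. The library with the highest sum, Prkd3-/- primary clone 14 (698 CPM), had the least Angptl7 of the primary libraries (5.68 CPM). The sums of the pericyte and smooth muscle markers (8 genes), the adipocyte markers (5 genes, with Plin1 and Cidec at 3 counts or fewer in every library) and the tendon and cartilage markers (6 genes) overlapped between states in both genotypes. In WT primary cells and lines they were at 3620 to 3670 and 2550 to 7930 CPM, at 154 to 209 and 3.21 to 179 CPM, and at 250 to 311 and 136 to 855 CPM. Single genes of these lists were apart between states all the same. Myh11, the smooth muscle myosin heavy chain, was at 70.1 to 78.8 CPM in WT primary cells and 4.07 to 20.8 CPM in WT lines, and at 20.2 to 103 and 0.0954 to 5.98 CPM in the Prkd3-/- groups. In WT primary cells and lines, Abcc9 was at 3.66 to 5.03 and 0.0806 to 2.09 CPM, Fabp4 at 4.29 to 6.26 and 0.580 to 1.45 CPM, and Acan at 4.59 to 9.02 and 0.0677 to 0.403 CPM, and these 3 overlapped in Prkd3-/- cells. Pdgfrb, a pericyte marker, lay the other way in Prkd3-/- cells, at 176 to 217 CPM in primary cells and 221 to 575 CPM in lines. It overlapped between WT states (445 to 465 and 359 to 1040 CPM). The summed epithelial markers (4 genes) were at most 4.30 CPM in any library. They were at 2.28 to 2.59 CPM in WT primary cells and 0.145 to 0.474 CPM in WT lines, with Krt18 and Cdh1 apart, and overlapped in Prkd3-/- cells. Of the 9 fibroblast markers only Lum was apart between WT states, at 165 to 192 CPM in primary cells and 0.0483 to 93.5 CPM in lines. The part of any of these cell types in the levels of the members and of these genes was not tested.

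In Prkd3-/- cells 0 of 44 pathway genes passed in edgeR, 4 had an unadjusted p under 0.05 and DESeq2 called 1. Tek was at 9.38, 1.53 and 6.70 CPM in primary clones 13, 14 and 15 and at 0.439, 6.81, 13.3 and 0.863 CPM in lines 13, 13a, 14 and 15. Line 13a lay within and line 14 above the range of the primary cells, and line 14 is the one with the high Angpt1. The log2 fold change of Tek was -0.13 (SE 1.15, edgeR adjusted p = 0.991). Lpl, the lipase that Angptl4 inhibits, was at 149 to 203 CPM in WT primary cells and 2.61 to 177 CPM in WT lines, and at 24.0 to 66.0 and 0.0954 to 132 CPM in the Prkd3-/- groups, with log2 fold changes of -1.01 (SE 1.19, edgeR adjusted p = 0.694) and 0.48 (SE 1.41, edgeR adjusted p = 0.963). Between genotypes 0 of 45 pathway genes passed in primary cells in edgeR (19 with an unadjusted p under 0.05, 9 without Prkd3-/- primary clone 14, 5 in DESeq2) and 0 of 44 among lines (2 with an unadjusted p under 0.05, 1 in DESeq2). The DESeq2 call among lines was Tek (DESeq2 adjusted p = 0.0039), higher in Prkd3-/- lines without overlap. Its edgeR log2 fold change was 4.44 (SE 1.32, edgeR adjusted p = 0.634). Lpl was among the 5 in primary cells (DESeq2 adjusted p = 1.74e-06), lower in Prkd3-/- cells without overlap. Its edgeR log2 fold change was -2.10 (SE 0.43, edgeR adjusted p = 0.0477). Tie1, the second receptor of the family, was at most 0.0305 CPM in any library and was not tested.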

How the data were processed

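Poly-A RNA of 13 MEF cultures was sequenced as paired 100-base reads. The deposited values are raw read-pair counts per gene, in a WT and a Prkd3-/- table. The authors aligned reads with STAR (2.7.10a) to mm10 and, per the header of the WT file, counted pairs with featureCounts (Subread 2.0.6) without strand and for every gene overlapped, on Ensembl annotation release 102 (GRCm38). The Prkd3-/- file holds no such command, and the labels list the same tools, with SAMtools 1.18 and FastQC 0.12.0. Gene symbols were found for 55141 of the 55487 IDs.

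Members and gene lists were chosen with earlier results of these data known. Each comparison was fitted alone on the whole table with edgeR 4.0.16 (R 4.3.3; TMM, filterByExpr, robust quasi-likelihood test, Benjamini-Hochberg adjustment), with thresholds of adjusted p under 0.01 and an absolute log2 fold change of at least 1. Fitted fold changes use each comparison's own scaling. CPM for display used 1 TMM scaling over 13 libraries, with a prior count of 1 for log2 values, and RPKM used the exon length in the files. Intervals are 95%. Named genes are all members, Tek, Tie1, host genes, up to 6 pathway genes that passed per comparison and the 5 genes most like Angptl7. Lpl, Kdr, Pcsk5, Ppara, single marker genes, the genes sharing exon bases and the lowest neighbours were named after their values were seen. Depth gave a floor of 3 counts per library. The fit was tested on simulated counts.

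Clone numbers in the labels tie each line to its primary culture (13a was taken as from clone 13 by its name). The correlations of same-clone deviations from the group means were -0.033, 0.019 and -0.039 for WT clones 3, 4 and 5 and 0.142, -0.283, 0.088 and 0.04 for Prkd3-/- lines 13, 13a, 14 and 15, and the block was an alternative. Other alternatives were scaling, low-count filters, DESeq2 1.42.0, a threshold, summing lines 13 and 13a, and leaving out each library.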

Additional observations from a re-analysis of the deposited data

How the results depend on the processing

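Angptl7 had a negative log2 fold change in 24 of 24 alternatives of the immortalized against primary comparisons. The number of genes called moved with the settings. In WT, 361 genes became 157 with at least 10 counts in every library, 1368 in DESeq2, 0 with the replicate block, 1045 at an adjusted p under 0.05 with no limit on the fold change, and 48 to 743 when 1 library was left out. In Prkd3-/- cells 0 became 190 in DESeq2 and was 0 in each other alternative, leaving out 1 library included. Between primary genotypes 156 became 335 with no filter, 88 with at least 10 counts, 836 in DESeq2, 1233 at an adjusted p under 0.05 and 2 to 1456 with 1 library left out. Between immortalized genotypes 8 became 178 in DESeq2, 13 at an adjusted p under 0.05 and 0 to 10 with 1 library left out. Among the alternatives run, no other moved these counts by over 1.5 times. For the replicate block the lost calls are given beside each result named; between genotypes no block could be fitted because no clone number is shared. The causes were not tested.

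The members' fold changes changed sign in 16 of 203 alternatives of the immortalized against primary comparisons and in 11 of 176 of the genotype comparisons, where 2 others gained a call. The former were those of Angptl1, Angptl2 and Angptl6 in WT (up to 0.07, 0.12 and 0.18) and of Angpt1 (-0.39 with the replicate block, -0.998 without line 14), Angpt2, Angpt4 and Angptl1 in Prkd3-/- cells. Between genotypes, in primary cells, Angpt2 turned to 0.002 with library size alone and ran from -0.93 to 0.29 with 1 library left out (0.01, 0.24 and 0.29 where it reversed), Angptl2 from -0.28 to 0.32, Angptl4 from -0.96 to 0.23 and Angptl6 from -0.24 to 0.15 (0.08 and 0.15). Among lines Angpt1 ran from -0.051 to 2.80, Angptl1 from -2.52 to 1.05 and Angptl6 from -0.91 to 0.16. With at least 10 counts in every library Angptl7 gave no value in the immortalized against primary comparisons. Depth limits the Angptl7 level of the lines, which rests on 3 to 31 counts, and that of Angptl1 in Prkd3-/- lines 13 and 15. The 3 to 4 libraries per group limit the rest.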
